A study of Mus musculus with 7 samples.

Results

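Solute carrier genes were followed through an RNA sequencing study of mouse haematopoietic stem and progenitor cells (HSPCs), the blood-forming cells from which all mature blood lineages arise. A gene was taken in when its symbol had the form of a solute carrier name (Slc, a family number, a letter and a member number) and when it held at least 100 counts in at least 3 of the 7 libraries. Among the 34305 rows deposited, 373 had such a name, and 198 of these met the count rule. The members were thus chosen by their level, and 171 of them held 100 counts in all 7 libraries. At the edge of the rule lay Slc25a47, whose third-highest count was 101, and just outside it lay Slc25a35, at 98.6. A set of 5 members carry a solute carrier symbol but are not transporters (Slc9a3r1, Slc9a3r2, Slc4a1ap, Slc7a6os and Slc2a4rg-ps), which leaves 193 transporters. These were sorted into 12 classes by the substrate that their family is known to move. By the GENCODE M21 annotation of GRCm38, 197 of the 198 members are protein coding.

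The study compared 3 libraries of HSPCs that overexpressed MN1, 3 that overexpressed MN1pQdel (MN1-∆pQ in the series text) and 1 untransduced library (noTD). MN1 is a transcriptional co-regulator and an oncogene of acute myeloid leukaemia, and the ∆pQ form lacks its polyglutamine stretch. Cells of the transduced groups were sorted after transduction, and poly(A) RNA was read after 7 to 9 days of culture in serum with stem cell factor, IL-3 and IL-6, a medium that all 3 groups shared. Strain, age and sex of the mice, the species of the MN1 sequence, the day of each library and whether replicates came from separate animals were not given in the sources used here, so p-values measure the spread between these libraries.

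Solute carriers are membrane proteins that move small molecules down their own gradient or by coupling to the gradient of sodium, protons or an exchanged solute. They bring in amino acids, sugars, nucleosides, vitamins and metals, let out lactate and iron, and, inside the cell, link the cytosol with mitochondria, lysosomes, secretory granules and the Golgi apparatus. In blood cells they are best known for iron handling in macrophages and erythroid cells, for the amino acid supply of dividing cells and for the loading of amines into mast cell granules. A change in messenger RNA does not by itself show a change in transport, since many carriers need a partner chain or are moved to and from the membrane.

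Totals ran from 38210847 to 67728808 counts per library, of which the 198 members took between 1.098% and 1.299%. Mn1 stood at 314, 287 and 288 CPM (counts per 1000000 counts of a scaled library) with MN1, at 691, 404 and 728 CPM in the MN1pQdel libraries and at 33.6 CPM in the noTD library, whose source label is the same as that of the transduced cells. Of 13 HSPC markers 5 were higher in MN1 than in MN1pQdel and none lower, with summed levels of 2271 to 2915 CPM against 1473 to 2613 CPM and 2413 CPM in noTD. Cd34 was at 527, 579 and 649.9 CPM in MN1, 261, 258 and 159.7 CPM in MN1pQdel and 301 CPM in noTD (edgeR adjusted p = 0.0106), and Flt3 rose by a log2 of 4.93 and Cd27 by 3.18 (adjusted p = 0.0253 and 0.0254). Kit, between 237 and 875 CPM, did not pass. Of 12 B and T lymphoid markers 7 were tested and 4 were higher in MN1, with sums of 18.1 to 28.3 CPM, 5.19 to 9.88 CPM and 7.40 CPM. Markers of mature myeloid cells were present as well. All 12 neutrophil markers were lower in MN1 than in MN1pQdel, with summed levels of 4339 to 7960 CPM against 26811 to 37253 CPM and 38752 CPM in noTD. The 9 eosinophil markers tested gave 7 that were lower, with sums of 13.3 to 21.6 CPM in MN1, 235 to 3647 CPM in MN1pQdel and 3802 CPM in noTD. Of the 14 mast cell and basophil markers 10 were lower, with sums of 1645 to 4062 CPM, 3737 to 21808 CPM and 18500 CPM. Of the 13 monocyte and macrophage markers 6 were lower, with sums of 561 to 625 CPM, 1053 to 1259 CPM and 1469 CPM. Of 14 erythroid markers 1 was lower (sums of 46.1 to 95.5 CPM, 55.9 to 213 CPM and 140.3 CPM), and of 10 megakaryocyte markers edgeR called none, with 3 at an unadjusted p under 0.05 and 3 called lower by DESeq2 (sums of 268 to 809 CPM, 455 to 1219.9 CPM and 1028 CPM). No defining granulocyte marker was at 0 in any library. The low ends of the MN1pQdel ranges for eosinophil and for mast cell and basophil markers belong to MN1pQdel replicate 2. Beside these counts, edgeR called 6.08% of all 14808 genes tested higher in MN1 and 11.1% lower, and DESeq2 called 2244 of them lower. Some marker lists were thus higher and others lower in MN1, and their part in the solute carrier results below was not tested. In bulk RNA, fewer cells of a type and less RNA per cell cannot be told apart.

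The question of the main comparison was which solute carrier genes differed between cells with MN1 and cells with the form that lacks the polyglutamine stretch. Genes lower with MN1 included those of the iron exporter Slc40a1, the lysosomal amino acid exporter Slc36a1, the GABA carrier Slc6a13 and the fatty acid uptake protein Slc27a4. Genes higher with MN1 included those of the lactate carrier Slc16a1, the zinc carriers Slc39a10 and Slc30a4, the cationic amino acid carrier Slc7a3 and the organic cation carrier Slc22a3. In edgeR's quasi-likelihood test with Benjamini-Hochberg adjustment over all 14808 genes tested, 42 of the 198 members passed the threshold of 0.05, 15 higher and 27 lower in MN1. The background was 17.2% of all genes tested, 6.08% higher and 11.1% lower, and 18.8% of the 11426 tested genes that met the same count rule, 5.75% higher and 13% lower. The members' share of 21.2% lay near that background. The 4 passing members Slc16a12, Slc6a19, Slc6a12 and Slc39a2 reached 100 counts in only 1 of the transduced groups, so the count rule itself favoured a difference. The other 38 were among 191 members that reached 100 counts in at least 1 library of both groups. Some of these, Slc30a4, Slc35f2, Slc7a3 and Slc41a2 among them, reached it in only 1 library of the lower group. The count rule favoured their difference too. All 42 had no overlap between the groups' libraries, as did 87 of the 198 members in all, against 43.6% of all genes tested and 46.8% of those under the same count rule. A difference of 2-fold or more was seen in 24 of the 42.

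**Figure D1:**
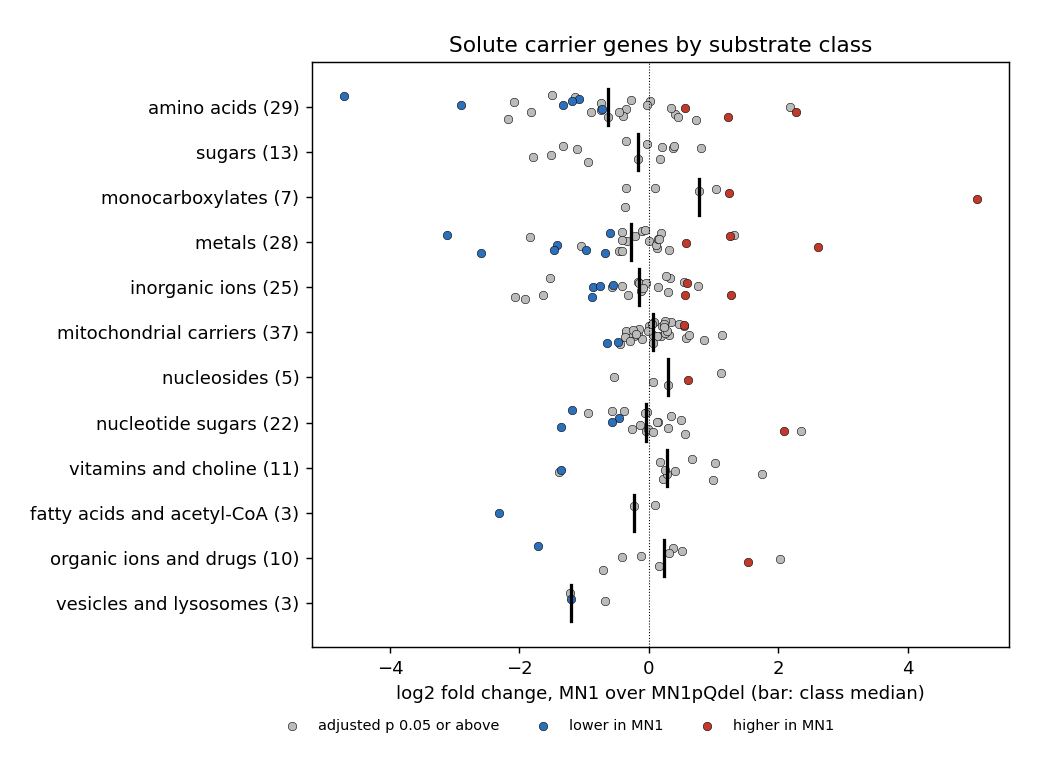
Log2 fold change of MN1 over MN1pQdel for each of the 193 transporter genes (x axis), by substrate class with the number of genes in parentheses (y axis). Red points were higher and blue points lower in MN1 at an adjusted p under 0.05 (edgeR), grey points did not pass, and the black bar is the class median. The mitochondrial carriers stay between -0.64 and 1.14, while the amino acid class reaches from -4.71 to 2.28. The amino acid extremes are Slc6a19 and Slc7a3, for which the count rule favoured a difference.

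Replicates with the same number deviated together, and with the replicate number as a block edgeR called 29 members higher and 53 lower, against a background of 30.7% of all genes tested (13.7% higher and 17% lower) and 35.8% of those under the count rule. All 42 members called without the block were called in the same direction with it. More members passed when MN1pQdel replicate 2 was left out, as did more of all genes tested, and the cause was not tested. MN1pQdel replicate 2 lay nearer to the MN1 mean than to the mean of the other MN1pQdel libraries for 124 of the 198 members, against 27 for replicate 1 and 45 for replicate 3. Without it, edgeR called 43 members higher and 59 lower (background 41.9% of all genes tested, 20.9% higher and 21% lower, and 47.1% under the count rule), the 42 included. Leaving out any other library left few calls, 3 higher and 7 lower without MN1 replicate 1, 2 and 5 without MN1 replicate 2, 1 and 7 without MN1 replicate 3, 1 and 7 without MN1pQdel replicate 1, and 3 and 7 without MN1pQdel replicate 3. Among members that reached 100 counts in both groups, Slc40a1, Slc27a4, Slc22a15 and Slc36a1 passed in all 6 of these fits, and 25 of the 42 passed in at most 1 of them. With library totals alone in place of TMM scaling, the median of all genes tested moved up by 0.20 on the log2 scale and the split turned from 15 higher and 27 lower to 27 higher and 15 lower, a share of higher calls of 64.3% against 35.7%. The background in that fit was 20.2% of all genes tested (12.5% higher and 7.7% lower) and 22.2% of those under the count rule. The 12 calls lost in that fit were all lower in MN1, with Slc41a2, Slc31a2, Slc11a1, Slc39a2, Slc43a2, Slc25a24, Slc39a3, Slc35e1, Slc4a2, Slc25a45 and Slc35c2 among them.

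**Figure D2:**
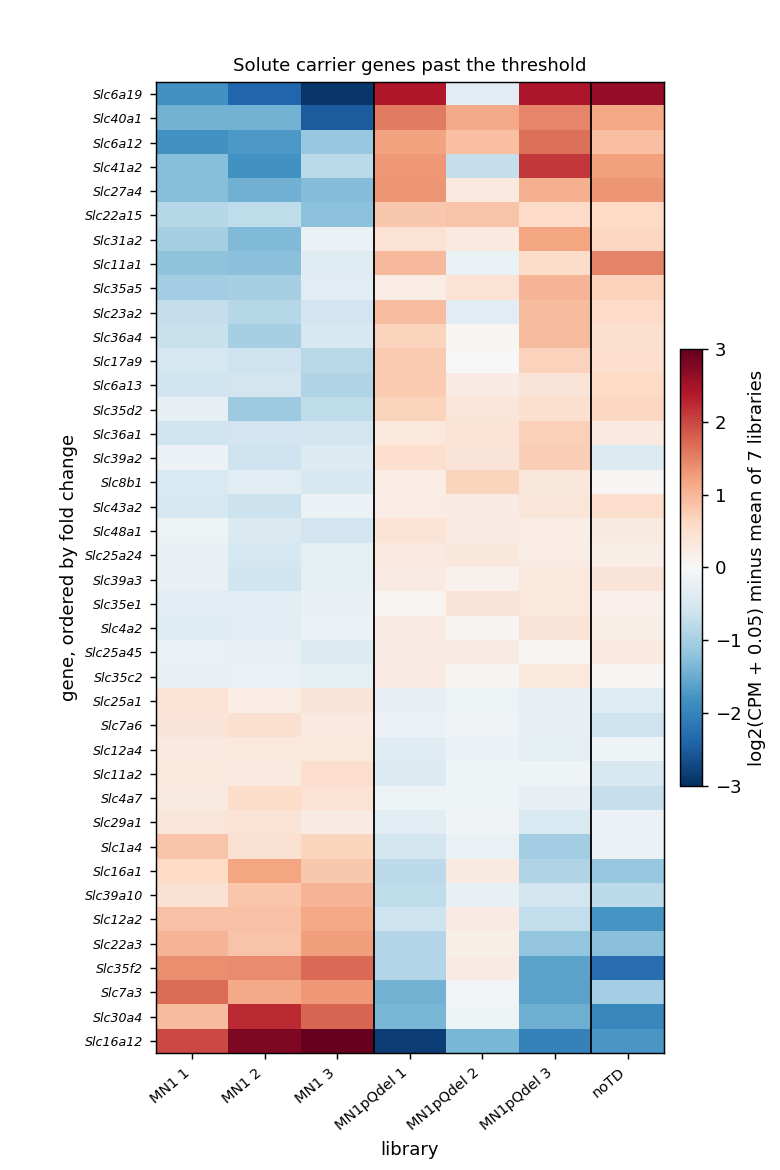
Levels of 40 of the 42 genes past the threshold (rows, ordered by fold change) in each of the 7 libraries (columns), as log2(CPM + 0.05) minus the gene's mean over the 7 libraries (colour). MN1pQdel replicate 2 is paler than replicates 1 and 3 in many rows.

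Among genes of iron and heme transport, the iron exporter Slc40a1 fell and the iron importer Slc11a2 rose in MN1. Slc40a1 (chromosome 1, 45908068 to 45926523, minus strand) encodes ferroportin, the iron exporter of the cell membrane. It stood at 13.6, 13.5 and 6.41 CPM in MN1 replicates 1 to 3, at 107, 80.6 and 101 CPM in MN1pQdel replicates 1 to 3 and at 81.6 CPM in noTD. Every MN1 library lay below every other library, and MN1pQdel replicate 2 was close to noTD. The log2 fold change of MN1 over MN1pQdel, in which 1 unit is a 2-fold difference, was -3.12 ± 0.32 (SE), with an adjusted p of 0.00526. Slc11a1 (chromosome 1, 74375195 to 74386062, plus strand), the metal pump of phagosome membranes known as NRAMP1, was measured at 8.71, 8.38 and 15.5 CPM in MN1 and at 39.5, 17.4 and 29.1 CPM in MN1pQdel. The noTD library was the highest of the 7 at 56.3 CPM, and MN1pQdel replicate 2 lay just above the highest MN1 library. It was lower in MN1 by a log2 fold change of -1.42 ± 0.37 (SE), adjusted p = 0.0445. Its call held in 1 of the 6 leave-out fits, that without MN1pQdel replicate 2, and the adjusted p was 0.0554 with library totals alone. Its relative Slc11a2 (chromosome 15, 100387898 to 100425072, minus strand), the DMT1 importer of ferrous iron, went the other way, with 41.1, 40.6 and 47.9 CPM in MN1, 25, 30.5 and 30.4 CPM in MN1pQdel and 23.5 CPM in noTD. The MN1 libraries were the 3 highest (log2 fold change 0.58 ± 0.14 (SE), adjusted p = 0.0336). Among the leave-out fits the call of Slc11a2 also held only without MN1pQdel replicate 2. Slc48a1, which carries heme out of lysosomes, fell from 241 ± 17.3 to 152 ± 23.2 CPM (SD, n = 3; log2 fold change -0.68, adjusted p = 0.0249). Slc25a37, mitoferrin 1 of the inner mitochondrial membrane, lay between 45.7 and 63.9 CPM in the transduced libraries (log2 fold change -0.11, adjusted p = 0.625). The erythroid anion exchanger Slc4a1 was not a member, since no library held more than a few of its counts.

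The wider list of 22 iron and heme genes gave 3 higher and 2 lower in MN1, with a median log2 fold change of 0.03 against -0.01 over all genes tested. The ferritin light chain Ftl1, part of the shell that stores iron, stood at 2832, 2378 and 2421 CPM in MN1 and at 10752, 4853 and 9383 CPM in MN1pQdel (log2 fold change -1.72 ± 0.30 (SE), adjusted p = 0.0149). Ncoa4, the receptor that delivers ferritin to lysosomes, was lower, with a log2 fold change of -0.56 (adjusted p = 0.0297, and 0.0908 with library totals alone). The ferroxidase Cp, whose product helps ferroportin to hand on iron, rose by a log2 of 2.61 from 0.752 ± 0.585 to 4.61 ± 1.04 CPM (adjusted p = 0.0327). Ireb2, which represses ferritin and stabilises transferrin receptor messenger RNA, rose by 0.66 (adjusted p = 0.0499), and Cpox, an enzyme of heme synthesis, by 0.64 (adjusted p = 0.0386). Among the leave-out fits Ncoa4, Cp, Ireb2 and Cpox passed only without MN1pQdel replicate 2, and Ftl1 also without MN1pQdel replicate 3. The transferrin receptor Tfrc was at 314 to 365 CPM in MN1 and 238 to 322 CPM in MN1pQdel, with an adjusted p of 0.136 and 0.04802 with the replicate block. The fit with the block called 4 higher and 5 lower in this list. The shares over all genes tested were 6.08% higher and 11.1% lower, and 13.7% and 17% with the block.

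Zinc transporters fall into importers of the cytosol (the SLC39 or ZIP family) and exporters into vesicles or out of the cell (the SLC30 or ZnT family), and single members of both were higher in MN1. Slc39a10 (chromosome 1, 46807544 to 46892852, minus strand), a ZIP importer of the plasma membrane, stood at 34.3, 44.4 and 50.99 CPM in MN1, 14.8, 21.6 and 17.2 CPM in MN1pQdel and 14.6 CPM in noTD. The 3 MN1 libraries were the 3 highest, and the log2 fold change was 1.26 ± 0.20 (SE) with an adjusted p of 0.0125. It held in 3 of the 6 leave-out fits, those without MN1 replicate 1, MN1pQdel replicate 2 and MN1pQdel replicate 3. Slc30a4 (chromosome 2, 122681233 to 122702663, minus strand), a ZnT exporter of endosomes, was low, at 5.46, 13.5 and 9.59 CPM in MN1, 1.06, 2.56 and 0.994 CPM in MN1pQdel and 0.685 CPM in noTD. The MN1 libraries again did not overlap with the others (log2 fold change 2.62 ± 0.51 (SE), adjusted p = 0.02105), though they differed among themselves by more than their distance from MN1pQdel replicate 2. Only 1 MN1pQdel library reached 100 counts of Slc30a4, so the count rule favoured this difference. Slc39a3 was lower, 15.1 ± 2.03 against 22.6 ± 1.48 CPM (log2 fold change -0.60, adjusted p = 0.0471). Slc39a2, another ZIP importer, reached 100 counts in MN1pQdel alone of the transduced groups and is given without a test, at 1.76, 1.27 and 1.48 CPM in MN1 and 2.85, 2.599 and 3.35 CPM in MN1pQdel. Slc39a7, a zinc channel of the endoplasmic reticulum, had the highest level per length of the metal class (83.05 CPM per kb of exon, mean of 7 libraries) and did not pass (log2 fold change 0.16, adjusted p = 0.286). Slc39a8, a ZIP importer that also takes up manganese, had 3 MN1 libraries below the 3 MN1pQdel libraries, with an adjusted p of 0.0779 that became 0.0441 with the replicate block. Slc30a2, an exporter into vesicles, stood at 11, 3.89 and 8.23 CPM in MN1, 36.3, 5.69 and 39.95 CPM in MN1pQdel and 47.9 CPM in noTD. MN1pQdel replicate 2 lay within the MN1 range, and the adjusted p was 0.115, 0.04004 with the block and 0.00587 without that library. Of 10 other zinc and copper genes, metallothioneins Mt1 and Mt2 among them, edgeR called none, with 3 at an unadjusted p under 0.05, and DESeq2 called 1 lower. Among all 14808 genes tested edgeR called 17.2%, and DESeq2 called 2244 lower.

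For other metals, Slc41a2, a magnesium transporter, was at 2.22, 1.505 and 3.08 CPM in MN1 and at 13.5, 3.29 and 23.8 CPM in MN1pQdel. MN1pQdel replicate 2 lay just above the highest MN1 library, and the log2 fold change was -2.59 ± 0.69 (SE) with an adjusted p of 0.0474. As given above, the count rule favoured a difference for Slc41a2. Slc31a2, a copper transporter of endosomes, stood at 12.5, 9.86 and 21.7 CPM in MN1 and 33.4, 30.7 and 56.7 CPM in MN1pQdel. It was lower in MN1 (log2 fold change -1.47 ± 0.36 (SE), adjusted p = 0.0383), whereas the plasma membrane copper importer Slc31a1 did not pass (adjusted p = 0.399). In the class of 28 metal transporters 3 rose and 7 fell, with a median log2 fold change of -0.28. With the replicate block 4 were higher and 11 lower. The shares over all genes tested were 6.08% higher and 11.1% lower, and 13.7% and 17% with the block.

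**Figure D3:**
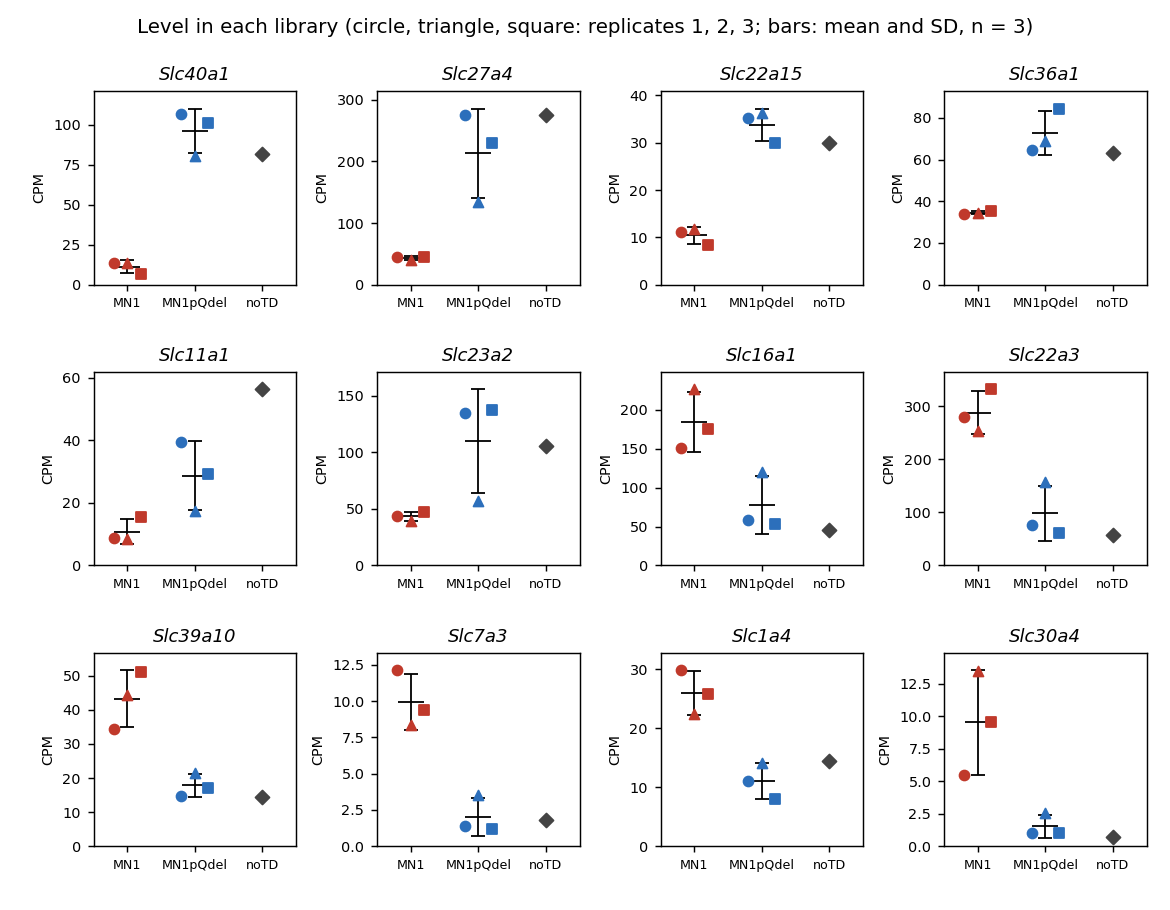
CPM in each library (y axis, linear, from 0) for 12 genes past the threshold, with MN1 in red, MN1pQdel in blue and noTD in grey. Circles, triangles and squares are replicates 1, 2 and 3, and bars are the mean and SD of 3 libraries. In the plots of Slc11a1, Slc23a2, Slc16a1 and Slc22a3 the MN1pQdel triangle is the library of that group nearest to MN1. For Slc7a3 and Slc30a4 the count rule favoured a difference.

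Amino acid transporters formed the class with the most lower calls after the metals. The 6 lower calls were Slc36a1 and Slc36a4, Slc43a2, and 3 members of the sodium- and chloride-coupled SLC6 family. Of 29 members 3 rose and 6 fell in MN1, with a median log2 fold change of -0.63 against -0.05 over all 198 members and -0.01 over all genes tested. With the replicate block 6 were higher and 13 lower. Over all genes tested 6.08% were higher and 11.1% lower, and 13.7% and 17% with the block. Slc36a1 (chromosome 11, 55204350 to 55236330, plus strand), which lets small amino acids out of lysosomes together with protons, was at 34.05, 34.5 and 35.3 CPM in MN1, 64.8, 68.8 and 84.5 CPM in MN1pQdel and 63.1 CPM in noTD. The MN1 libraries lay close together and below all others, with a log2 fold change of -1.08 ± 0.13 (SE) and an adjusted p of 0.00582. Its relative Slc36a4 was also lower, 16.1 ± 2.896 against 39.8 ± 11.5 CPM (log2 fold change -1.32, adjusted p = 0.0212). Slc43a2, a facilitator of large neutral amino acids, fell from 113 ± 5.74 to 69.2 ± 12.4 CPM (adjusted p = 0.0212, and 0.0541 with library totals alone).

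All 7 SLC6 members had a fitted log2 fold change below 0, and 3 of them passed, as did all 7 with the replicate block and all 7 without MN1pQdel replicate 2. The share of all genes tested called lower was 11.1%, 17% with the block and 21% without that library. The count rule favoured a difference for 2 of these 3, Slc6a12 and Slc6a19. Slc6a13 (chromosome 6, 121300227 to 121337733, plus strand) and Slc6a12 (chromosome 6, 121343076 to 121365775, plus strand), both carriers of GABA, with taurine and betaine among their other substrates, lie next to each other. Slc6a13 was at 4.39, 4.56 and 3.56 CPM in MN1, 11.6, 7.92 and 8.72 CPM in MN1pQdel and 10.2 CPM in noTD, with the MN1 libraries lowest (log2 fold change -1.19 ± 0.24 (SE), adjusted p = 0.02297). Slc6a12, which reached 100 counts in no MN1 library and is described without a test, was at 0.537, 0.579 and 0.891 CPM in MN1 and 4.701, 3.81 and 6.39 CPM in MN1pQdel. Slc6a19, the neutral amino acid carrier of gut and kidney epithelium, was in the same position, at 0.195, 0.116 and 0.0636 CPM in MN1, 4.56, 0.634 and 4.62 CPM in MN1pQdel and 5.29 CPM in noTD. MN1pQdel replicate 2 stood between the MN1 libraries and the other MN1pQdel libraries for Slc6a19. The serotonin transporter Slc6a4, a gene of platelets, mast cells and nerve cells, stood at 17.9, 4.84 and 14.04 CPM in MN1, 53.9, 11.6 and 62.3 CPM in MN1pQdel and 33.4 CPM in noTD. MN1pQdel replicate 2 lay within the MN1 range, and the adjusted p of 0.109 became 0.0123 with the block. The taurine transporter Slc6a6, the most abundant SLC6 member per length, was at 234, 197 and 271 CPM in MN1 and 434, 244 and 478 CPM in MN1pQdel (adjusted p = 0.0948, and 0.03205 with the block).

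On the side of higher levels, Slc7a3 (chromosome X, 101079210 to 101086020, minus strand), a carrier of arginine and lysine, was at 12.1, 8.33 and 9.35 CPM in MN1, 1.38, 3.52 and 1.19 CPM in MN1pQdel and 1.84 CPM in noTD. The lowest MN1 library was well above the highest of the rest, and the log2 fold change was 2.28 ± 0.46 (SE) with an adjusted p of 0.0226. As given above, the count rule favoured a difference for Slc7a3. Slc1a4, a sodium-coupled carrier of alanine, serine and cysteine, stood at 29.8, 22.4 and 25.8 CPM in MN1, 11.05, 14.1 and 7.95 CPM in MN1pQdel and 14.5 CPM in noTD (log2 fold change 1.23 ± 0.24 (SE), adjusted p = 0.0213). Slc7a6, which exchanges cationic for neutral amino acids, rose from 53.5 ± 2.34 to 79.1 ± 5.11 CPM (log2 fold change 0.55, adjusted p = 0.0179). Slc7a3 and Slc7a6 held in 1 of the 6 leave-out fits, that without MN1pQdel replicate 2, and Slc1a4 in those without MN1pQdel replicate 2 and without MN1pQdel replicate 3.

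Several abundant amino acid transporters did not pass the test. Slc3a2, the heavy chain that brings its SLC7 partners to the membrane, had 169 CPM per kb, and its light chain Slc7a5, which forms with it the LAT1 exchanger of leucine and other large neutral amino acids, had 149 CPM per kb. Slc7a5 stood at 656, 521 and 478 CPM in MN1 and 532, 535 and 608 CPM in MN1pQdel, with overlapping groups (log2 fold change -0.03 ± 0.15 (SE), adjusted p = 0.908). Slc3a2 was at 499, 406 and 375 CPM in MN1 and at 806, 399.8 and 914 CPM in MN1pQdel. Its replicate 2 of MN1pQdel lay within the MN1 range, with an adjusted p of 0.129, 0.126 with the block and 0.00373 without that library. Of the other light chains, Slc7a8 and Slc7a11 had lower mean levels in MN1 than in MN1pQdel. Slc7a8, the light chain of LAT2, was at 152, 81.8 and 142 CPM in MN1 and 661, 133 and 881 CPM in MN1pQdel (log2 fold change -2.17, adjusted p = 0.0612, and 0.0357 with the block). Slc7a11, the cystine importer xCT, was at 39.6, 41.5 and 31.8 CPM in MN1 and 110.5, 43.7 and 160.4 CPM in MN1pQdel, without overlap, and passed neither without the block (adjusted p = 0.05796) nor with it (0.0945), but did without MN1pQdel replicate 2 (0.00135). The glutamine carriers Slc1a5 and Slc38a2 had log2 fold changes of 0.41 (adjusted p = 0.161) and 0.34 (adjusted p = 0.259).

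**Figure D4:**
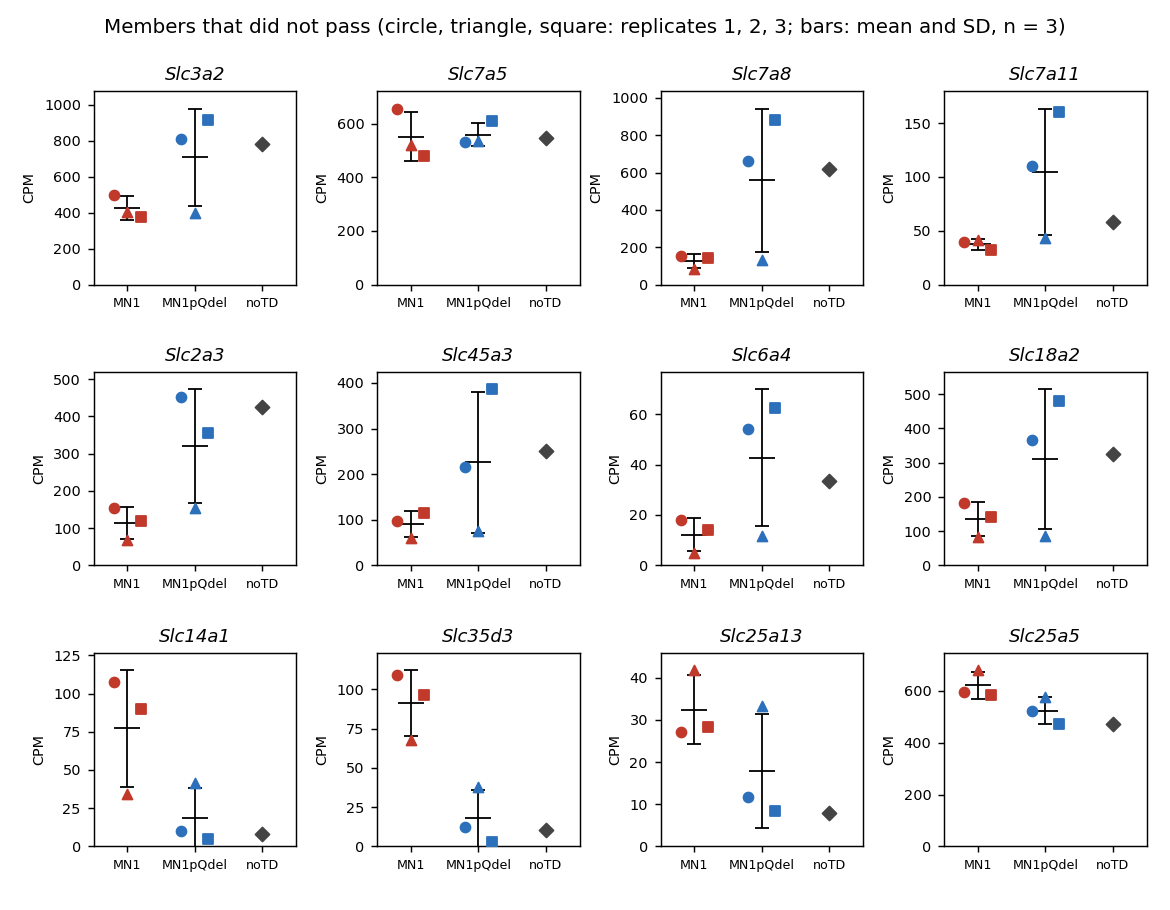
CPM in each library (y axis, linear, from 0) for 12 genes that did not pass the test between MN1 (red) and MN1pQdel (blue), with noTD in grey. Circles, triangles and squares are replicates 1, 2 and 3, and bars are the mean and SD of 3 libraries, drawn down to 0 where they would go below it. For Slc3a2, Slc7a8, Slc2a3, Slc6a4 and Slc18a2 the MN1pQdel triangle lies among the MN1 libraries, far below the circle and the square.

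ATF4 is the transcription factor that answers to a shortage of amino acids, and several amino acid transporters are among its known targets. Of 22 other ATF4 target genes 3 rose in MN1, against 6.08% of all genes tested, and 11 did with the replicate block, against 13.7%. The median log2 fold change of the 22 was 0.53, against -0.01 over all genes tested. The 3 were Trib3, a pseudokinase that feeds back on ATF4, at 57.97, 42.8 and 45.1 CPM in MN1 and 24.3, 22.6 and 11.01 CPM in MN1pQdel (log2 fold change 1.32 ± 0.31 (SE), adjusted p = 0.0326), the stress protein Nupr1 (1.24, adjusted p = 0.0199) and the tryptophanyl-tRNA synthetase Wars (0.46, adjusted p = 0.0437). Among the leave-out fits Nupr1 and Wars passed only without MN1pQdel replicate 2, and Trib3 also without MN1pQdel replicate 3. The serine synthesis gene Psat1 was at 482, 502 and 421 CPM in MN1 and 214, 372 and 196 CPM in MN1pQdel and passed with the block (adjusted p = 0.0619 without it and 0.0256 with it). The transporters that are themselves known ATF4 targets include Slc1a4, which rose, as given above, and Slc7a11, Slc7a5 and Slc3a2, which did not pass. Without MN1pQdel replicate 2, Slc7a11 and Slc3a2 passed as lower in MN1, opposite in direction to the median of the list.

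Among 13 sugar transporters none passed in edgeR's test, with 5 at an unadjusted p under 0.05. DESeq2 called 1 higher and 3 lower, and the fit with the replicate block called 1 higher and 5 lower. Among all 14808 genes tested edgeR called 6.08% higher and 11.1% lower, and 13.7% and 17% with the block. DESeq2 called 1754 of them higher and 2244 lower. The glucose transporter Slc2a3 (GLUT3; chromosome 6, 122727809 to 122801640, minus strand) stood at 154, 67.1 and 119 CPM in MN1, 452, 153 and 355 CPM in MN1pQdel and 424 CPM in noTD. MN1pQdel replicate 2 lay just below the highest MN1 library, so that the groups overlapped, and the adjusted p was 0.0619, 0.00733 with the block and 0.00684 without that library. Slc2a1 (GLUT1), the basal glucose transporter of most cells, was at 113, 115 and 158 CPM in MN1 and 119.6, 112 and 99.5 CPM in MN1pQdel (log2 fold change 0.21 ± 0.15 (SE), adjusted p = 0.346). The 2 glucose transporters had similar levels per length, 34 CPM per kb for Slc2a3 and 34.6 for Slc2a1. Slc45a3, a putative sugar carrier with the highest level per length of the class (48.2 CPM per kb), was at 98.1, 59.9 and 115 CPM in MN1 and 217, 76.6 and 386 CPM in MN1pQdel (adjusted p = 0.129, and 0.04902 with the block). Downstream of entry, 1 of 10 tested genes of glucose phosphorylation and its next steps rose and 2 fell. Over all genes tested 6.08% rose and 11.1% fell. G6pdx, the first enzyme of the pentose phosphate pathway, was at 236, 245 and 204 CPM in MN1 and 429.9, 468 and 406 CPM in MN1pQdel, without overlap (log2 fold change -0.94 ± 0.12 (SE), adjusted p = 0.00704), and passed in all 6 leave-out fits. Hk3, the hexokinase of myeloid cells, was lower (-0.99, adjusted p = 0.0352, and 0.0571 with library totals alone) and Pfkm, a phosphofructokinase, higher (0.71, adjusted p = 0.0156). Among the leave-out fits Pfkm passed only without MN1pQdel replicate 2, and Hk3 also without MN1pQdel replicate 3.

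Monocarboxylate transporters of the SLC16 family carry lactate, pyruvate and related acids with a proton, and 2 of 7 members rose in MN1, with a median log2 fold change of 0.77. The share of all genes tested called higher was 6.08%, and 13.7% with the replicate block. Slc16a1 (MCT1; chromosome 3, 104638668 to 104658462, plus strand) was at 151, 226 and 175 CPM in MN1, 58.1, 121 and 53.5 CPM in MN1pQdel and 45.7 CPM in noTD. The 3 MN1 libraries were the highest, MN1pQdel replicate 2 stood between the groups, and the log2 fold change was 1.24 ± 0.33 (SE) with an adjusted p of 0.0478, which became 0.00145 without that library and 0.0506 with all 7 libraries in the fit. The exporter Slc16a3 (MCT4) was at 184, 151 and 242 CPM in MN1, 284, 212 and 229.6 CPM in MN1pQdel and 359.6 CPM in noTD and did not pass (log2 fold change -0.35, adjusted p = 0.241). Slc16a12, a creatine transporter, reached 100 counts in MN1 alone, so its difference was favoured by the rule and is given without a test. It stood at 3.17, 5.602 and 7.51 CPM in MN1, at 0.0651, 0.266 and 0.149 CPM in MN1pQdel and at 0.192 CPM in noTD. With the replicate block 4 members were higher, Slc16a10, a carrier of aromatic amino acids, and Slc16a13 with them (adjusted p = 0.0423 and 0.0462). The 250 bases before the RefSeq start of Slc16a1 (GRCm38.p6, chr3:104638414-104638663, plus strand, 5′ to 3′) are shown because an E-box, the site class bound by MYC and its relatives, lies in them.
Slc16a1: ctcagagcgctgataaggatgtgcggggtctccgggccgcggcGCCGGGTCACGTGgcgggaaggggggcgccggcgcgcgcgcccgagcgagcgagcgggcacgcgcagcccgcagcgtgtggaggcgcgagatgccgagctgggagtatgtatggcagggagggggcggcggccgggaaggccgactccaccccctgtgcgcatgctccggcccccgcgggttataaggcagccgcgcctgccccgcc
Capitals mark the E-box CACGTG, which starts at base 51 counted from 1 at the 5′ end, together with an overlapping match to the antioxidant response element (TGACNNNGC), which is read on the other strand and starts at base 44. A match is a stretch of letters and not a measured binding site.

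Of 8 partners of lactate transport, the carbonic anhydrase Car2 rose (1.38, adjusted p = 0.0212), and the chaperone of MCT1, Bsg, did not pass (adjusted p = 0.967). Car2 was the only call in this list, against 6.08% of all genes tested called higher.

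The mitochondrial pyruvate carrier has members outside the Slc symbols, and both of its subunits were lower in MN1. Mpc1 was at 72.4, 69.6 and 60.8 CPM in MN1 and 106, 101 and 94.1 CPM in MN1pQdel (log2 fold change -0.58 ± 0.11 (SE), adjusted p = 0.0206, and 0.0529 with library totals alone). Mpc2 was at 33.8, 38.6 and 30.9 CPM in MN1 and 64.6, 62.7 and 52.9 CPM in MN1pQdel (log2 fold change -0.81 ± 0.14 (SE), adjusted p = 0.0142). They belong to a list of 34 tested transporters of the solute carrier class under other symbols, of which 3 rose and 7 fell. Slco4c1, an organic anion transporter, had the largest fall (-2.14, adjusted p = 0.0102), followed by the sideroflexin Sfxn5 (-2.03, adjusted p = 0.0161), and the uncoupling protein Ucp2 fell from 735 ± 93.2 to 479 ± 43.9 CPM (adjusted p = 0.0297, and 0.0546 with library totals alone). The rises were in Mfsd2a, which carries lysophosphatidylcholine (1.76, adjusted p = 0.04799), Spns2, the exporter of sphingosine-1-phosphate (1.34, adjusted p = 0.0321), and Rhag, the ammonia channel of red cells (1.60, adjusted p = 0.0212). With the replicate block the list gave 5 higher and 11 lower. The shares over all genes tested were 6.08% higher and 11.1% lower, and 13.7% and 17% with the block.

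Carriers of the SLC25 family, which move metabolites across the inner mitochondrial membrane, gave 3 calls. Of 37 members 1 rose and 2 fell, the median log2 fold change was 0.07, and the median size of the change was 0.26, against 0.40 over all genes tested and 0.36 over the genes under the same count rule. With the replicate block 3 were higher and 4 lower. Over all genes tested 6.08% were higher and 11.1% lower, and 13.7% and 17% with the block. Slc25a1 (chromosome 16, 17925223 to 17928219, minus strand), which exports citrate for lipid synthesis, was at 175, 151 and 168 CPM in MN1, 109, 116 and 109 CPM in MN1pQdel and 98.3 CPM in noTD (log2 fold change 0.55 ± 0.10 (SE), adjusted p = 0.0176). The groups did not overlap, and the call held in 2 of the 6 leave-out fits, those without MN1 replicate 2 and without MN1pQdel replicate 2. Slc25a24, an exchanger of ATP-magnesium for phosphate, was lower, at 53.99, 43.96 and 51.5 against 76.9, 80.2 and 74.3 CPM (log2 fold change -0.64 ± 0.11 (SE), adjusted p = 0.0158, and 0.0513 with library totals alone). Slc25a45 was lower as well (-0.48, adjusted p = 0.0423). Slc25a5, an exchanger of ADP and ATP, had the highest level per length of all 198 members at 339 CPM per kb. Its libraries lay at 598, 680.0 and 586 CPM in MN1 and at 522, 577 and 472 CPM in MN1pQdel, with an adjusted p of 0.206. Its close copy Slc25a4 may share reads with it, so that the split between them is uncertain.

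Carriers of inorganic ions gave 3 higher and 4 lower of 25, against 6.08% and 11.1% of all genes tested. The sodium, potassium and chloride importer Slc12a2 (NKCC1) stood at 9.34, 9.35 and 11.4 CPM in MN1, 3.32, 6.02 and 3.03 CPM in MN1pQdel and 1.45 CPM in noTD. The noTD library was the lowest of the 7, and the log2 fold change between the transduced groups was 1.27 ± 0.31 (SE) with an adjusted p of 0.0361. Slc12a4, a potassium and chloride exporter of the same family, was also higher (35.6 ± 0.524 against 23.9 ± 1.65 CPM, adjusted p = 0.0245). Among the leave-out fits Slc12a2 and Slc12a4 passed only without MN1pQdel replicate 2. Among carriers that set the pH of the cytosol, the bicarbonate importer Slc4a7 rose (log2 fold change 0.59, adjusted p = 0.0226), while the bicarbonate and chloride exchanger Slc4a2 fell (-0.55, adjusted p = 0.0256). Slc8b1 (chromosome 5, 120511168 to 120534024, plus strand), the sodium and calcium exchanger of mitochondria, was at 30.9, 33.6 and 30.8 CPM in MN1 and 49.8, 67.8 and 54.1 CPM in MN1pQdel. For this gene MN1pQdel replicate 2 was the library farthest from MN1 (log2 fold change -0.86 ± 0.14 (SE), adjusted p = 0.0133). The phosphate importer Slc20a1, which had the highest level per length of the class, had a log2 fold change of 0.27 and an adjusted p of 0.176.

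Fatty acid, organic cation and vitamin transporters held several of the larger differences. Slc27a4 (chromosome 2, 29802634 to 29817522, plus strand), an acyl-CoA synthetase that drives fatty acid uptake, stood at 45.4, 40.5 and 44.1 CPM in MN1, 276, 134 and 229.7 CPM in MN1pQdel and 275 CPM in noTD. The MN1 libraries lay within a few CPM of each other and far below the rest (log2 fold change -2.31 ± 0.26 (SE), adjusted p = 0.00554). Slc22a15 (chromosome 3, 101855776 to 101924453, minus strand), a carrier of zwitterions, was at 11.1, 11.7 and 8.44 CPM in MN1, 35.2, 36.3 and 29.9 CPM in MN1pQdel and 30.01 CPM in noTD (log2 fold change -1.71 ± 0.18 (SE), adjusted p = 0.00526). Both passed in all 6 leave-out fits. Slc22a3 (chromosome 17, 12418960 to 12507704, minus strand), a low-affinity carrier of histamine, serotonin and other organic cations, went the other way, at 279.8, 253 and 332 CPM in MN1, 75.5, 158 and 61.5 CPM in MN1pQdel and 58.01 CPM in noTD. MN1pQdel replicate 2 stood between the groups, and the log2 fold change of 1.54 ± 0.35 (SE), adjusted p = 0.0311, became 2.08 without that library. That was the only leave-out fit in which Slc22a3 passed. The 250 bases before the RefSeq starts of Slc27a4 (GRCm38.p6, chr2:29802384-29802633, plus strand) and Slc22a3 (chr17:12507705-12507954, minus strand) are shown 5′ to 3′ as those of the genes with the largest fall and the largest rise among the members of these classes that passed.
Slc27a4: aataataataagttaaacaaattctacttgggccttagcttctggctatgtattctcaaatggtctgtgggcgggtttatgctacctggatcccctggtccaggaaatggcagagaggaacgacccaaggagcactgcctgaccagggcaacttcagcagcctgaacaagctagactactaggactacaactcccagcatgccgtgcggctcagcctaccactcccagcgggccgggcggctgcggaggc
Slc22a3: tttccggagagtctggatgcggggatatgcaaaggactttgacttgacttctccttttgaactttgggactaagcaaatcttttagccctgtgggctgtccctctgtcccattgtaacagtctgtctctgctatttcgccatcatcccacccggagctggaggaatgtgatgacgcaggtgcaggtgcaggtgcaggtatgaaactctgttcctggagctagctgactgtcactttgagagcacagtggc
Both are in lower case throughout, because neither held any of the 8 motifs searched, the E-box of Slc16a1 among them.

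The sodium-coupled ascorbate carrier Slc23a2 was lower, at 43.4, 39.4 and 47.5 CPM in MN1 and 135, 57.1 and 137 CPM in MN1pQdel (log2 fold change -1.35 ± 0.33 (SE), adjusted p = 0.0364). Among the leave-out fits Slc23a2 passed only without MN1pQdel replicate 2. Slc44a2, a choline carrier with the highest level per length of the class, had a log2 fold change of 0.28 (adjusted p = 0.202). Slc23a2 was the only one of 11 vitamin and choline carriers past the threshold in edgeR without the block, and with the block 1 was higher and 2 lower. Among all genes tested 6.08% were higher and 11.1% lower, and 13.7% and 17% with the block. The urea channel Slc14a1, chosen after its values were seen, was at 107, 34.4 and 89.7 CPM in MN1 and 10.1, 41.3 and 4.99 CPM in MN1pQdel. MN1 replicate 2 lay below MN1pQdel replicate 2, and the gene did not pass (adjusted p = 0.116).

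Of 5 nucleoside carriers 1 passed as higher, against 6.08% of all genes tested. Slc29a1 (ENT1), the main equilibrative nucleoside transporter of the plasma membrane, rose from 50.8 ± 6.39 to 78.2 ± 4.55 CPM (log2 fold change 0.61 ± 0.12 (SE), adjusted p = 0.0233), while the lysosomal Slc29a3 and the purine carrier Slc43a3 did not pass (adjusted p = 0.797 and 0.2900). Of 22 SLC35 members, which carry nucleotide sugars in the Golgi or have no known substrate, 1 rose and 4 fell. Over all genes tested 6.08% rose and 11.1% fell. Slc35f2 was at 5.12, 5.19 and 6.34 CPM in MN1, 1.02, 2.27 and 0.596 CPM in MN1pQdel and 0.356 CPM in noTD (log2 fold change 2.08 ± 0.48 (SE), adjusted p = 0.0327). The MN1 libraries were the highest, and MN1pQdel replicate 2 was the next. As given above, the count rule favoured a difference for Slc35f2. Slc35a5 and Slc35d2 were lower, 10.05 ± 3.06 against 25.4 ± 7.58 CPM and 6.86 ± 2.05 against 15.4 ± 1.69 CPM (adjusted p = 0.0279 and 0.0274), as were Slc35e1 and Slc35c2 (log2 fold changes of -0.57 and -0.46, adjusted p = 0.0223 and 0.03003). Slc35a4, the most abundant of the family per length, was at 156, 171 and 146 CPM in MN1 and 121, 152 and 111 CPM in MN1pQdel, where replicate 2 lay within the MN1 range (adjusted p = 0.181, and 0.04895 with the block). Slc35d3, also chosen after its values were seen, was at 109, 68.03 and 96.2 CPM in MN1 and 12.4, 37.8 and 3.03 CPM in MN1pQdel, without overlap, and did not pass (adjusted p = 0.0798, and 0.0653 with the block).

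Of 3 members in the class of vesicles and lysosomes 1 was lower, against 11.1% of all genes tested. All 3 had a fitted value below 0. Zinc exporters into vesicles were counted with the metals, and of these Slc30a4 rose, as given above. Slc17a9, which loads ATP into vesicles, was at 26.05, 24.3 and 20.9 CPM in MN1, 64.5, 37.4 and 60.4 CPM in MN1pQdel and 53.4 CPM in noTD, with no overlap (log2 fold change -1.20 ± 0.23 (SE), adjusted p = 0.0201). Among the leave-out fits Slc17a9 passed only without MN1pQdel replicate 2. Slc18a2 (VMAT2), which loads histamine and serotonin into the granules of mast cells and basophils, was at 183, 81.7 and 142 CPM in MN1, 366, 84.5 and 479.9 CPM in MN1pQdel and 324 CPM in noTD. MN1pQdel replicate 2 was level with the lowest MN1 library, the adjusted p was 0.189, 0.102 with the block and 0.00933 without that library. The summed mast cell and basophil markers of that replicate, 3737 CPM, likewise lay within the MN1 range of 1645 to 4062 CPM, and their part in the Slc18a2 values was not tested.

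Against the untransduced library, which allows no test, a member was counted when the group mean differed from it by at least 2-fold and every library of the group lay on the same side. In MN1, 28 of 198 members were higher and 35 lower, against 8.61% and 13.4% of the genes under the same count rule. In MN1pQdel 5 were higher and 6 lower, against 0.455% and 2.03%. Both counts use the same noTD library. The largest MN1 differences, as log2 CPM with a prior count of 2, were 4.45 for Slc16a12, 3.80 for Slc35f2 and 3.62 for Slc30a4 on the high side, and -5.06 for Slc6a19, -2.95 for Slc40a1 and -2.75 for Slc30a2 on the low side. For Slc16a12, Slc35f2, Slc30a4 and Slc6a19 the count rule favoured a difference between the transduced groups, as given above. The MN1pQdel extremes were smaller. They were 1.54 for Slc35f2, 1.5 for the arginine carrier Slc7a2 and 1.41 for Slc12a2 on the high side, and -1.24 for Slc30a2, -1.13 for Slc6a19 and -1.11 for the sodium and proton exchanger Slc9a5 on the low side. Slc7a2 stood at 4.302 CPM in noTD and at 14.1, 5.87 and 22.1 CPM in MN1pQdel. The thiamine carrier Slc19a2 and the scaffold protein Slc9a3r2, which is not a transporter, made up the rest of the higher count, and Slc11a1, the neuronal chloride exporter Slc12a5 and Slc15a3 the rest of the lower one. For Slc40a1 the MN1pQdel mean was within 0.23 of noTD on the log2 scale. Slc15a3, a peptide and histidine carrier of lysosomes, was lower than noTD in MN1pQdel (-1.06), with 46.6, 48.4 and 31.2 CPM against 86.3 CPM, and its MN1 libraries spread from 36.3 to 79.9 CPM. Without MN1pQdel replicate 2 the count of lower members in that group fell to 1, and without MN1pQdel replicate 3 the count of higher members rose to 12.

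**Figure D5:**
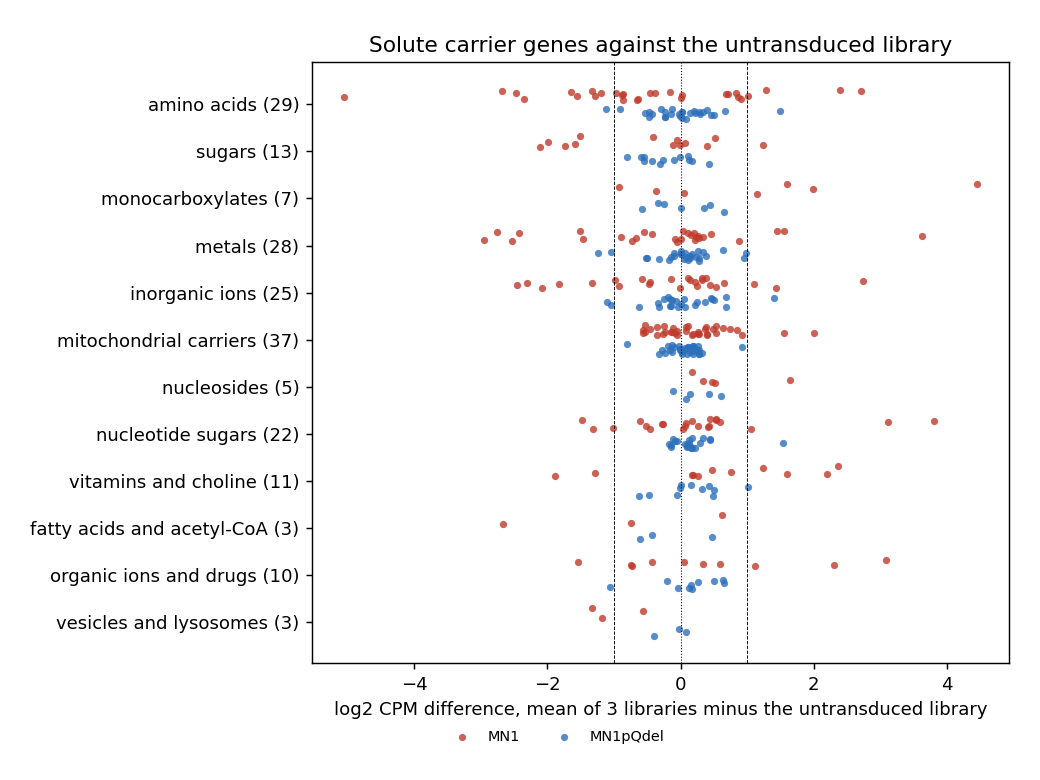
Difference of the group mean from the noTD library in log2 CPM (x axis) for each of the 193 transporter genes, by substrate class (y axis), with MN1 in red and MN1pQdel in blue. Dashed lines mark a 2-fold difference. Red points reach from -5.06 to 4.45, and blue points from -1.24 to 1.54. The red extremes are Slc6a19 and Slc16a12, for which the count rule favoured a difference.

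The promoters of the members were searched for 8 short motifs. A RefSeq promoter entry on GRCm38.p6, from 250 bases before to 50 after the start, was matched for 153 of the 198 members. Both strands were searched. The E-box CACGTG seen before Slc16a1 was found in 21 of these (13.7%), against 9.74% of 10791 promoters of genes tested. It was found in 3 of the 12 higher and 3 of the 20 lower members with an entry. The antioxidant element was found in 22.2% of the members' promoters against 14.7% of those of genes tested, and the amino acid response element (TGATGNAAT, the site class of ATF4) in none against 0.528%. The other motifs were the PU.1 motif GAGGAAGT (3.27% against 3.31%), the GATA motif AGATAAG (1.96% against 1.91%), the C/EBP motif TTGCNNAA (5.23% against 8.72%), the HOX and PBX motif TGATTTAT (none against 0.463%) and the NRF1 motif CGCATGCG (1.31% against 3.72%). These shares describe letters in a short window and were not tested.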

How the data were processed

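Poly(A) RNA was sequenced in 3 MN1, 3 MN1pQdel and 1 noTD library, grouped by the sample titles. The values used were estimated counts by gene symbol in a single table deposited by the authors, and 32.5% of them were not whole (tolerance 1e-06). The submitters' processing notes name kallisto, DESeq2 and GRCm38. Tool versions, transcript index and strand setting were not given in the sources used here, so reads of overlapping genes cannot be told apart. Counts were rounded before testing. In 26 rows the symbol had become a date (0.172% of counts), and these rows were not taken out.

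Low genes were removed with filterByExpr and libraries scaled by TMM. MN1 was then compared with MN1pQdel in edgeR 4.0.16 (quasi-likelihood F test, R 4.3.3), with Benjamini-Hochberg adjustment over 14808 genes and a threshold of 0.05; DESeq2 1.42.0 was an alternative. The SE is the fold change over the root of the F statistic. CPM was scaled over 7 libraries and divided by the length of the merged exons (GENCODE M21) for levels per kb. With 1 noTD library, differences from it are descriptions in log2 CPM, computed with a prior count of 2.

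The members, the 6 pathway lists, the 8 marker lists and the naming rule were chosen with earlier results of these data known. Of 209 list entries 2 matched no symbol and were not analysed here. By the rule, up to 3 passing members per class and direction with a mean of at least 5 CPM were named, with the most abundant of each class per length, the 3 largest differences from noTD each way, those at the edge of the count rule, a fixed set of well-known carriers, and up to 3 genes per pathway list. Other genes named were chosen after their values were seen. The values of some passing genes are counted but not reported here. Of the 5 members that are not transporters, 3 were set apart after the table was seen. The letters of the NRF1 motif were shortened to its core after a first search.

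Replicates of a group differed by a chi-square of 43.3 to 352 per gene, so none was counted as a repeat of another. The replicate numbers were checked for pairing. Same-numbered libraries of the 2 groups deviated together (correlations of 0.368, 0.259 and 0.320), and libraries of different numbers did not (-0.282 to -0.060). Deviations from a group's mean cancel within the group, so these negative values follow from the positive ones and add no evidence. The labels give the numbers no meaning, and the pairing used for the block was read from these correlations. Alternatives were other scaling, no filter, DESeq2, the block, all 7 libraries in the fit, each library left out and other member rules. Leaving out both libraries of replicate 2 was added after seeing the data. The comparison was also tested on simulated counts, with 14639 genes in the test and only a small share of them changed. It recovered 24.2% of those set to a log2 change of 1 and 71.7% of those set to 2, with 7.77% false calls, and made 0 calls on null data.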

Additional observations from a re-analysis of the deposited data

How the results depend on the processing

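The fold changes of 5 of the 73 genes changed sign under an alternative, and 0 of these 5 passed the threshold in either fit. With library totals alone, the balance of calls turned from mostly lower to mostly higher. The calls of 15 higher and 27 lower solute carrier genes became 27 and 15 with library totals alone, 28 and 45 with DESeq2, 29 and 53 with the replicate block, and 38 and 53 without the replicate 2 pair, the last chosen after seeing the data. Among all 14808 genes tested, 901 higher and 1643 lower calls became 1847 and 1140 with library totals alone. They became 1754 and 2244 with DESeq2, and 2022 and 2523 with the block. The count over all genes without the replicate 2 pair is not given here. The solute carrier calls ranged from 1 to 43 higher and from 5 to 59 lower over the fits that left out 1 library, the upper ends without MN1pQdel replicate 2. Without that library 20.9% of all genes tested were called higher and 21% lower. The 11 higher and 11 lower genes of the pathway lists became 18 and 5 with library totals alone, 20 and 17 with DESeq2, 22 and 21 with the replicate block and 32 and 17 without the replicate 2 pair, and ranged from 0 to 33 higher and from 1 to 25 lower with 1 library left out. The 0 higher calls in edgeR came without MN1 replicate 3 and without MN1pQdel replicate 1, where 23 and 16 of these genes were higher at an unadjusted p under 0.05; DESeq2 was not run on those subsets. DESeq2 size factors in edgeR, no filter, all 7 libraries in the fit and other member rules kept the counts within 1.5 times. In the noTD comparison, the 5 higher and 6 lower members of MN1pQdel became 12 and 10 at 1.5-fold, and ranged from 5 to 12 higher and from 1 to 9 lower with 1 library left out. The MN1 counts against noTD stayed within 1.5 times.

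Of the 73 genes chosen by the naming rule, library totals alone took 8 below the threshold, while the block raised 6 past it (Slc2a3, Slc30a2, Slc35a4, Slc39a8, Slc45a3 and Slc6a4) and DESeq2 5. The block took none of them below it and changed no other call among them. Block values of genes chosen after their values were seen stand beside them. All 7 libraries in the fit ended the calls of Slc16a1, Ireb2 and Mfsd2a (adjusted p = 0.0506, 0.0535 and 0.0510), and no filter those of Slc25a45 and Wars (0.0677 and 0.0546). The cause of these changes was not tested. In the simulated data, with 3 libraries a group and few genes changed, a 2-fold difference was often missed. A larger share of genes passed in the real comparison, so the rate there may differ.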
